A study of Mus musculus with 12 samples.

Results

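The peaks described here were the core promoter peaks of protein-coding genes. They were the peaks of the master peak-list whose gene type was protein-coding and whose centre lay within 100 bp of a transcription start site (TSS) by the distance that HOMER, a peak annotation program, gave them. Of the 84243 peaks in the list, 7680 met this rule, or 9.12% (95% Wilson interval 8.92 to 9.31%). Such intervals cover counting error only, and peaks that share a gene or a locus are not independent.

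ATAC-seq maps open chromatin with a transposase that inserts sequencing adapters into exposed DNA. The 12 samples were 2 replicates each of 6 cell types sorted by flow cytometry from untreated wild-type C57BL/6 mice aged 8 to 12 weeks. Hematopoietic stem cells (HSCs), megakaryocyte progenitors (MkPs), erythroid progenitors (EPs), granulocyte/macrophages (GMs) and B cells came from bone marrow, and T cells were labelled as thymus. The list analyzed was pooled over all of them: it named no cell type for a peak and held no reads, so its depth was unknown and no peak could be compared between cell types or replicates.

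The core promoter is the stretch of DNA around the TSS on which general transcription factors and RNA polymerase II assemble. In mammals many core promoters lie in CpG islands, stretches rich in G, C and CpG dinucleotides that are usually free of DNA methylation and are kept open in many cell types. Others are poor in CpG, sometimes hold a TATA box at a fixed distance upstream of the TSS, and tend to belong to genes used in few tissues. A pair of genes that point away from each other can also share the DNA between their starts, which is then called a bidirectional promoter.

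Promoters of 9 genes from the gene families and lists are shown first, because each holds a short recognition sequence with its middle at the position where that sequence was most frequent among the core promoters. Positions in the next paragraph are those of the first base of a match. These 9 were chosen after their matches were seen. Each run is the RefSeq genome sequence (GRCm38, named mm10) on the strand of the gene, 5′ to 3′, with the match in capitals. The runs begin 120 bp upstream of the TSS and hold its first 20 transcribed bases, except for Mrpl42, where 30 transcribed bases around the match are given.
S100a8 (TATA box), chr3:90668951-90669090, plus strand: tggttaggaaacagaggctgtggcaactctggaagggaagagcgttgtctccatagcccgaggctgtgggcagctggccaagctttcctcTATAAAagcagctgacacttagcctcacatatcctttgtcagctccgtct
Hist2h3c1 (NF-Y), chr3:96239018-96239157, plus strand: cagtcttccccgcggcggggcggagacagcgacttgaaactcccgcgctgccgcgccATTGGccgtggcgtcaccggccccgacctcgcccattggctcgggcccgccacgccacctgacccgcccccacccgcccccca
Cox6a1 (GC box), chr5:115348936-115349075, minus strand: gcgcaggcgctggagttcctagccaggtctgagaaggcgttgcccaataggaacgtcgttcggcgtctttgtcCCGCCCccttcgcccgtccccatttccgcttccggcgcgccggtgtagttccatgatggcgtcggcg
Slc35f6 (ETS), chr5:30647819-30647958, plus strand: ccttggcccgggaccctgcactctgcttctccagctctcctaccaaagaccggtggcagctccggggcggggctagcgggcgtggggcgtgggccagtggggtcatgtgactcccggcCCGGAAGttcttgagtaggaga
Il17rd (NRF1), chr14:27038881-27039020, plus strand: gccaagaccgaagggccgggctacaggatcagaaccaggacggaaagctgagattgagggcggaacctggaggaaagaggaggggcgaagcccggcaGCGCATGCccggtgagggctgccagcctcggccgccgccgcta
Mrpl42 (YY1), chr10:95501900-95501929, minus strand: ttgaagcAAGATGGCgagcgcgcggtgagt
Zfp493 (CRE), chr13:67779573-67779712, plus strand: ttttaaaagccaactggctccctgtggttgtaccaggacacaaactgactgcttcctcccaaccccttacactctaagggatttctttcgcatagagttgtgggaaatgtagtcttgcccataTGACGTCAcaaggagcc
Rab24 (E-box), chr13:55321961-55322100, minus strand: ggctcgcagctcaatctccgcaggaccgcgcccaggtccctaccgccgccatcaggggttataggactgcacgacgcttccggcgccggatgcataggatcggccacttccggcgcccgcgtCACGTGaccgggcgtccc
Ndufa3 (ZNF143), chr7:3617253-3617392, plus strand: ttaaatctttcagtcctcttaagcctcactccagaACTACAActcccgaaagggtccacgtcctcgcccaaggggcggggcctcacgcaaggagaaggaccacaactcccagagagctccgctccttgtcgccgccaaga

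The TATA box of S100a8, which encodes a calcium-binding protein of neutrophils, began at −30 bp, and the peak centre lay 27 bp downstream of the TSS. The CCAAT sequence of Hist2h3c1, a histone H3 gene, began at −63 bp on the other strand, so that it reads ATTGG above. Cox6a1, a subunit of cytochrome c oxidase, had its GC box at −47 bp, and its peak was centred on the TSS itself, at 0 bp. In Slc35f6, a solute carrier, the ETS sequence began at −2 bp and so ran across the TSS. In Mrpl42, a protein of the mitochondrial ribosome, the YY1 sequence began at 27 bp, inside the transcribed region, on the strand of the gene. The promoters were chosen for a match at these places, which had the highest counts over all core promoters, given further on.

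The next runs are promoters of blood cell genes and of 1 widely expressed gene, taken for each recognition sequence from the gene of the lists whose peak was centred nearest its TSS. The peaks of Meis1, a stem cell gene, and of Eef2 met the definition of CpG island composition given further on, and the others did not. The run of Gp6 was extended upstream to hold the match.
Itgam (GC box), chr7:128062520-128062659, plus strand: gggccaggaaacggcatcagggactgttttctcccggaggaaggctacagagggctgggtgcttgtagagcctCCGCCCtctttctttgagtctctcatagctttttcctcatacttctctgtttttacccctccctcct
Meis1 (ETS), chr11:19018950-19019089, minus strand: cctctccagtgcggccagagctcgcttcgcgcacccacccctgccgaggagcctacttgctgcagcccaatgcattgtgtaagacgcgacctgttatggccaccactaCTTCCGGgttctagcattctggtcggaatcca
Zap70 (CRE), chr1:36761678-36761817, plus strand: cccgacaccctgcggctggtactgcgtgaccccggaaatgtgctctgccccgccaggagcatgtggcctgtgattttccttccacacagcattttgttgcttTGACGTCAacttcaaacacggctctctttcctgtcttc
Gp6 (GATA), chr7:4397725-4397898, minus strand: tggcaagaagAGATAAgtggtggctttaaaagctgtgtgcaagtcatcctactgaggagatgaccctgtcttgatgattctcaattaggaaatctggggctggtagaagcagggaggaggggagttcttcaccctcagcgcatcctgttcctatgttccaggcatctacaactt
Il7r (RUNX), chr15:9529857-9529996, minus strand: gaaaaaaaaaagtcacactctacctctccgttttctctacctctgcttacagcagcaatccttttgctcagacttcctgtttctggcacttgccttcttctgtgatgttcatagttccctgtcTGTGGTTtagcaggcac
Cd5 (PU.1), chr19:10738955-10739094, minus strand: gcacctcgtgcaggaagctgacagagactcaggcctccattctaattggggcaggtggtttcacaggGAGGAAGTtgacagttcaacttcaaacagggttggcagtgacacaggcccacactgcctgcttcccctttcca
Eef2 (NRF1), chr10:81176511-81176650, plus strand: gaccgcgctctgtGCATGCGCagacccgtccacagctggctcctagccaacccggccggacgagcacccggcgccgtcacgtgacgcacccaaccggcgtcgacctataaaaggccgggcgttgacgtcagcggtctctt

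Itgam, the integrin chain CD11b of myeloid cells, had a peak centred at 0 bp and a peak sequence with a ratio of observed to expected CpG of 0.253. Gp6, the collagen receptor of platelets, had a GATA sequence at −144 bp, a peak at −12 bp and a CpG ratio of 0.0781. The peak of Il7r, the interleukin 7 receptor needed by lymphoid progenitors, lay at −2 bp, with a RUNX sequence at 3 bp. Cd5, a T cell surface protein, had a PU.1 sequence at −53 bp and a peak at −5 bp. Zap70, a kinase of T cell receptor signalling, had a CRE at −18 bp and a peak at −5 bp. Eef2, a translation elongation factor of all cells, differed in composition: its CpG ratio was 0.993, and besides the NRF1 sequence at −107 bp it held an E-box at −43 bp, a TATA box at −15 bp and a CRE at 2 bp.

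The rule kept every centre within 100 bp of the TSS, which also bounded the spread and the shares at shorter distances. Within this limit more centres lay upstream than downstream. The median distance was −15 bp, where a negative value is upstream, with quartiles of −47 and 18 bp and a spread over peaks of 45.4 bp (SD). Of the 7680 peaks, 4709 were centred upstream (61.3%, 60.2 to 62.4%), 2901 downstream (37.8%, 36.7 to 38.9%) and 70 on the TSS base. Within 10 bp of the TSS were 1264 centres (16.5%), within 25 bp 2966 (38.6%) and within 50 bp 5197 (67.7%). The most frequent position was −20 to −11 bp, with 660 peaks, followed by −30 to −21 bp with 618 and −10 to −1 bp with 614. Genes on the plus strand had a median of −16 bp (3785 peaks) and genes on the minus strand one of −13 bp (3873 peaks), so the shift lay upstream on both strands.

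**Figure D1:**
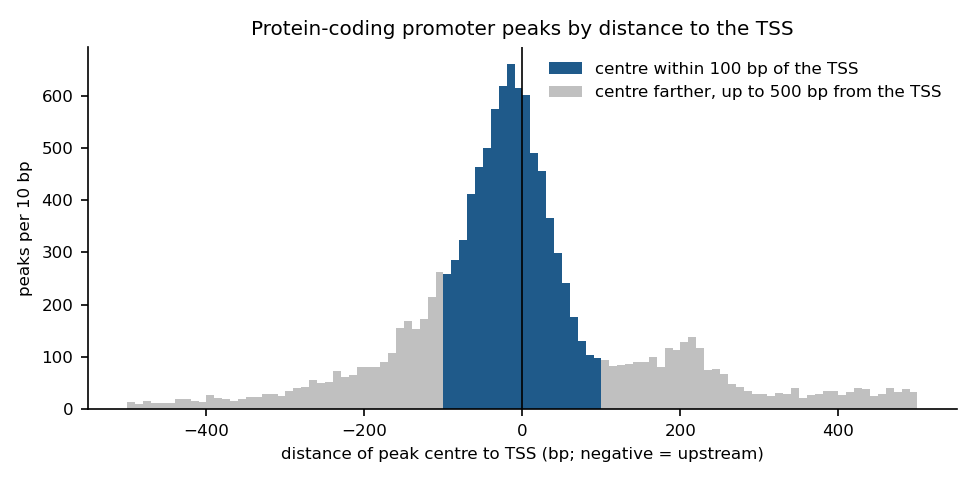
Number of protein-coding promoter peaks (vertical axis, peaks per 10 bp) by distance of the peak centre to the TSS (horizontal axis, bp), with the 7680 core promoter peaks in blue and peaks centred 101 to 500 bp away in grey. The count is highest at −20 to −11 bp, with 660 peaks, and falls to both sides, with a smaller rise downstream at 210 to 219 bp, with 138 peaks, outside the core promoters.

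The limit of 100 bp cut through the upstream flank of this distribution more than through the downstream flank. Just inside it, from −100 to −81 bp, lay 543 peaks, and just outside, from −120 to −101 bp, 478. Downstream, 196 peaks lay from 81 to 100 bp and 170 from 101 to 120 bp. Among those at the limit, Arhgap1, 1700013F07Rik and Ate1 were at −100 bp and Cd34, Bbs4 and Cmya5 at 100 bp, whereas Alcam, Abtb2 and Bdh2 at −101 bp and Ajuba, Cadm2 and Emc10 at 101 bp fell outside. Beyond the limit, 2412 peaks were centred up to 500 bp upstream of a protein-coding TSS and 2310 up to 500 bp downstream. Every peak was 499 bp wide, so each core promoter peak covered its TSS, and all 7680 together covered 3.83 Mb.

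The core promoter peaks named 7484 genes. Of the 21000 protein-coding genes with a curated start in RefSeq, 7465 (35.5%, 34.9 to 36.2%) were among them. Counted from the genes instead, 8013 (38.2%) had a curated start within 100 bp of a peak centre, 4657 (22.2%) had the nearest centre at 101 to 500 bp, 664 (3.16%) at 501 to 1000 bp and 2707 (12.9%) at 1001 to 10000 bp. The remaining 4959 genes (23.6%) had no peak centre within 10 kb of a start. Of the genes with a start within 100 bp, 620 were not named by a core promoter peak. The list gave the peak to another protein-coding gene for 347 of them, to a gene of another type for 73, and to the same gene at a distance over 100 bp for 200.

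Most chromosomes had similar shares of genes with a core promoter peak. On the autosomes the share ranged from 27.3% on chromosome 7, with 539 of 1973 genes, to 39.4% on chromosome 8, with 400 of 1014 genes. Olfactory and vomeronasal receptor genes, the large families of odour and pheromone receptors, numbered 414 on chromosome 7 and 287 on chromosome 2. Without them the share was 34.4% on chromosome 7 and 41.9% on chromosome 2, and 38.2% over all chromosomes. Chromosome X had 261 of 902 genes (28.9%, 26.1 to 32.0%), which stayed at 29.2% without the receptors. On chromosome Y only Uty, at 20 bp, and Ddx3y, at 17 bp, of 77 genes had one. Near-identical gene copies can lose peaks where multimapping reads are left out, and the part of this in the shares was not tested.

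Single genes with several core promoter peaks were few. One peak was found at 7299 genes, 2 peaks at 175, 3 at 9 and 4 at 1. The 4 peaks belonged to Plec, which encodes the cytoskeletal linker plectin and is transcribed from many alternative first exons. They lay at −100, −21, −74 and −28 bp from 4 different starts and spanned 33715 bp. Among genes with 3 peaks, Dnajc6, an auxilin, had them over 54002 bp, Oxr1, an oxidation resistance gene, over 41947 bp, the receptor gene Gpr146 over 12100 bp, and Kmt5a, the histone H4 lysine methyltransferase, over 6773 bp. Of the blood genes, Lmo2, Nfe2, Ank1, Cd22 and Lck had 2 core promoter peaks each. The median gap between such neighbouring peaks of 1 gene was 10760 bp over 196 gaps. The lowest was 525 bp. Overlapping peaks had been removed from the list, so starts closer than a peak width could not both be seen.

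Some core promoter peaks belonged to a pair of divergent genes. A TSS of another protein-coding gene lay on the opposite strand up to 1000 bp upstream at 709 of 7658 peaks with a RefSeq transcript (9.26%, 8.63 to 9.93%). The share was 8.26% (7.90 to 8.64%) over 1 RefSeq Select start for each of 20962 genes, and 1.35% (1.12 to 1.62%) over the 8301 of those starts with no peak centre within 500 bp. The interval of the core promoters touched that of all genes and lay far above that of genes without a peak. A divergent start can lie within 500 bp of a peak at its partner, so the set without a peak loses such starts by its definition. The part of this in its lower share was not tested. The median gap between the paired starts was 138 bp. At 266 pairs the centre lay within 100 bp of both starts, and the list named only 1 of the pair; by their partners these peaks would add 255 genes.

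Pairs with the shortest gaps among the families were Ndufs1 and Eef1b2, Ndufa7 and Rps28, Hist2h3c1 and H3c15, and Eif2b1 and Gtf2h3. The stretches between the starts of the first pairs are given below in capitals, both start bases included, with 29 bases on either side, on the strand of the gene named first.
Ndufs1 and Eef1b2, chr1:63176793-63176860, minus strand: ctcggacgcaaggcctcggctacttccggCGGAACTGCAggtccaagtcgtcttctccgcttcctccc
Ndufa7 and Rps28, chr17:33824533-33824601, plus strand: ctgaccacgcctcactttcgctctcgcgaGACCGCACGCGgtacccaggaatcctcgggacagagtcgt

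Ndufs1, a subunit of complex I, and Eef1b2, a translation elongation factor, started 9 bp apart. Their peak was centred 17 bp into Ndufs1 and 26 bp from the start of Eef1b2. Ndufa7, also of complex I, and Rps28, a protein of the small ribosomal subunit, started 10 bp apart, and their peak lay at 31 bp and 41 bp from these starts. The histone H3 genes Hist2h3c1 and H3c15 started 11 bp apart, with a peak at 2 bp. As near-identical copies, histone genes can lose reads where multimapping reads are left out. Eif2b1, a translation initiation factor subunit, and Gtf2h3, a subunit of the general factor TFIIH, started 17 bp apart, with a peak at 86 bp from Eif2b1.

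The position of the centre differed with the gap, without a steady trend over all classes. With starts at most 50 bp apart the median was 19.5 bp, inside the named gene (104 peaks), with 51 to 100 bp it was −1 bp (152 peaks), with 301 to 500 bp it was −56 bp (58 peaks), and with 501 to 1000 bp it was −22 bp (75 peaks). The share of centres within 100 bp of both starts fell from 88.5% at gaps up to 50 bp to 75.7% at 51 to 100 bp, 40% at 101 to 150 bp and 9.78% at 151 to 200 bp. Because every centre lay within 100 bp of the named start, this share had to fall with the gap and could only be 0 beyond 200 bp. A centre between the starts is upstream of either gene. Because the list gave each peak to its nearest start, the gap limited how far upstream such a centre could lie. The medians by gap were therefore in part set by this rule.

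**Figure D2:**
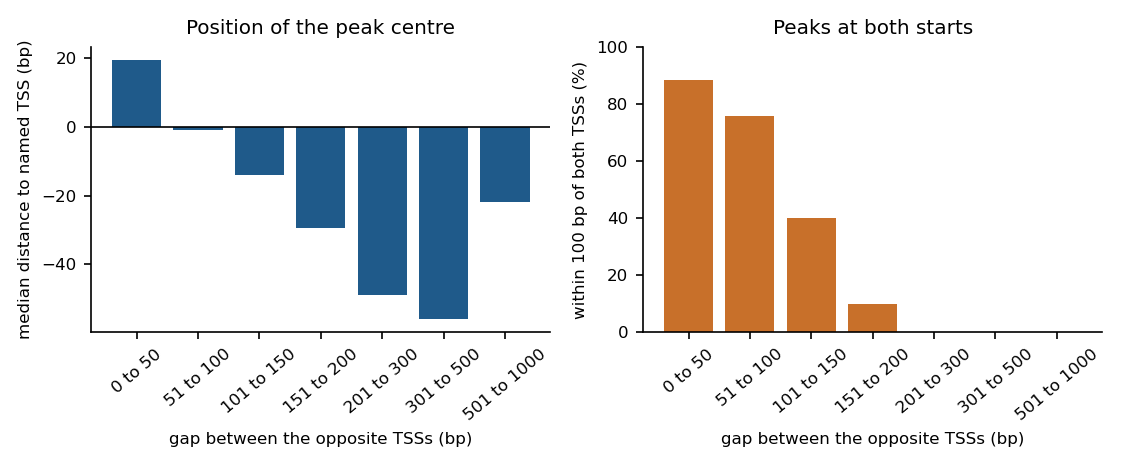
Core promoter peaks at bidirectional promoters by the gap between the opposite starts (horizontal axes, bp): median distance of the centre to the named TSS (left, bp) and share of centres within 100 bp of both starts (right, %). The median runs from 19.5 bp at gaps up to 50 bp to −56 bp at 301 to 500 bp and is −22 bp at 501 to 1000 bp. The median is in part set by the rule that gives each peak to its nearest start. The share, 88.5% in the first class, must fall with the gap because every centre lies within 100 bp of the named start.

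Core promoter peaks were rich in G, C and CpG. Their median GC content was 63.1% (quartiles 57.9 and 68.1%), and their median ratio of observed to expected CpG was 0.789. Of the 7680 peaks, 5981 (77.9%, 76.9 to 78.8%) had the composition of a CpG island, here a GC content of at least 50% and a ratio of at least 0.6 over the peak. Peaks centred 101 to 500 bp from a protein-coding TSS had this composition in 73.3% (71.5 to 75%) upstream and 74.2% (72.3 to 75.9%) downstream, so the core share was higher with no overlap of the intervals. At 769 promoter peaks of non-coding genes it was 50.2% (46.7 to 53.7%), and at 71072 peaks outside promoters 3.93% (3.79 to 4.08%).

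In promoter windows from 250 bp upstream to 50 bp downstream of the TSS, 70.7% (69.7 to 71.7%) of core promoters had CpG island composition. This was 47.9% (47.2 to 48.5%) for all Select promoters and 14.0% (13.2 to 14.7%) for those with no peak within 500 bp. Along the core promoters CpG density was 10.1 CpGs per 100 bp in the bin centred at −10 bp, 4.63 at −210 bp and 8.42 at 210 bp, so it fell faster upstream than downstream. Promoters without a peak held 3.14, 1.79 and 2.80 CpGs per 100 bp at these places.

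**Figure D3:**
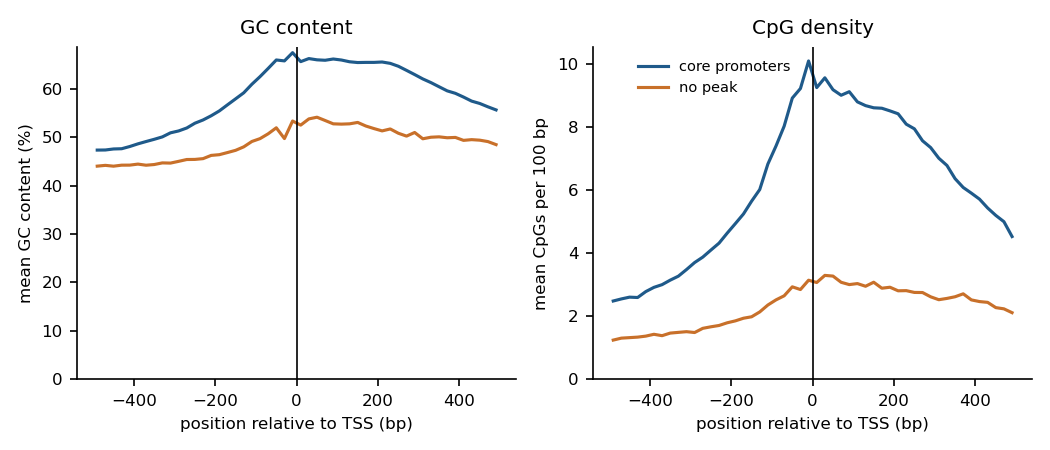
Mean GC content (left, %) and mean CpGs per 100 bp (right) in bins of 20 bp by position relative to the TSS (horizontal axes, bp), for core promoters (blue) and for promoters with no peak within 500 bp (orange). CpG density at −10 bp is 10.1 per 100 bp in core promoters and 3.14 in promoters without a peak.

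The 1699 core promoter peaks of other composition had a median GC content of 54.9% and a CpG ratio of 0.402, against 65.1% and 0.836 for the CpG-rich class. They were centred farther upstream, at a median of −22 bp against −12 bp, and 30.4% (28.2 to 32.6%) of them lay downstream of the TSS against 39.9% (38.6 to 41.1%). A bidirectional partner was found at 3.71% (2.91 to 4.72%) of the CpG-poor peaks and 10.8% (10.0 to 11.6%) of the CpG-rich peaks. Another peak of the list lay within 10 kb of 73.5% (71.3 to 75.5%) of CpG-poor and 69.5% (68.3 to 70.6%) of CpG-rich core promoter peaks. None of these pairs of intervals overlapped.

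Recognition sequences were searched as exact letters on both strands of the same windows, in 7658 core promoters. The TATA box, which positions the transcription machinery, was searched as TATAAA. The sequence bound by NF-Y was searched as CCAAT, and the GC box of Sp and KLF factors as GGGCGG. For ETS factors the letters were CCGGAAG, for NRF1 they were GCATGCGC, and for YY1 they were AAGATGGC. The CRE, the cyclic AMP response element, was searched as TGACGTCA and the E-box as CACGTG. Part of the ZNF143 sequence was searched as ACTACAA. Of the blood cell factors, GATA was searched as AGATAA, RUNX as TGTGGTT and PU.1 as GAGGAAGT. Matches of different sequences shared bases in 120 promoters (1.57%), most often a GC box and CCAAT, in 46. The ETS and PU.1 letters both contain GGAAG, and their matches shared bases in 2. A match describes the letters and says nothing of binding.

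The sequences differ in length, and shorter ones match more often by chance, so their shares do not rank one sequence against another. The share expected by chance was not computed. The GC box was in 67.2% of core promoters (66.2 to 68.2%), against 49.2% of all Select promoters and 22.1% of those without a peak. CCAAT, the shortest sequence searched, was in 39.6% (38.5 to 40.7%), a share close to those of all promoters (38.7%) and of promoters without a peak (39.1%). The ETS sequence was in 19.3% (18.4 to 20.2%), against 12.2% and 2.80%. NRF1, a regulator of nuclear genes for mitochondria, had 5.60%, against 3.68% and 1.11%. YY1 had 4.82%, against 3.26% and 1.16%, the CRE 4.01%, against 2.61% and 1.16%, and the E-box 11.0%, against 8.07% and 4.61%. For ZNF143 the shares were 4.65%, 3.74% and 3.08%, and for PU.1 3.58%, 3.12% and 3.04%. The PU.1 interval of the core promoters (3.185 to 4.018%) overlapped those of both other sets (2.893 to 3.364% and 2.688 to 3.427%).

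The TATA box and GATA sequences ran the other way, and so did RUNX against promoters without a peak. TATAAA was anywhere in the window of 6.29% (5.77 to 6.86%) of core promoters, 12.8% of all promoters and 22.0% of those without a peak. GATA had 6.10% (5.58 to 6.66%), 9.49% and 14.7%, and RUNX 4.06% (3.64 to 4.53%), 4.65% and 5.86%. The RUNX interval overlapped that of all promoters (4.37 to 4.94%) but not that of promoters without a peak (5.37 to 6.38%). Placed from −40 to −20 bp on the strand of the gene, where a working TATA box is known to lie, TATAAA was in 69 core promoters (0.901%, 0.713 to 1.14%), in 2.88% (2.66 to 3.12%) of all promoters and in 5.47% (5.00 to 5.98%) of those without a peak. The median GC content of the windows was 61.0, 57.0 and 48.7% in these 3 sets, and its part in the shares was not tested.

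Within the core promoters several of these sequences differed between the composition classes. The classes were defined by GC content and CpG. The ETS and GC box letters each hold a CpG, and those of GATA, RUNX, PU.1 and the TATA box hold none. Differences in these sequences therefore cannot be told apart from the definition of the classes. The ETS sequence was in 22.7% (21.7 to 23.8%) of CpG-rich and 6.99% (5.87 to 8.30%) of CpG-poor core promoters, and the GC box in 75% and 39.8%. GATA was in 4.71% (4.20 to 5.28%) of the CpG-rich and 11.0% (9.61 to 12.6%) of the CpG-poor, RUNX in 3.07% (2.66 to 3.53%) and 7.58% (6.41 to 8.94%), and PU.1 in 2.63% (2.25 to 3.07%) and 6.93% (5.81 to 8.24%). CCAAT was in 39.2% (38.0 to 40.4%) and 40.9% (38.5 to 43.2%), intervals that overlapped, and so was ZNF143, in 4.64% (4.14 to 5.20%) and 4.68% (3.77 to 5.79%). The TATA box at its known place was in 0.553% (0.394 to 0.775%) of CpG-rich and 2.13% (1.54 to 2.94%) of CpG-poor core promoters.

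Matches were placed by their middle in steps of 10 bp. TATAAA was most frequent at −30 to −21 bp, with 71 matches, 60 on the strand of the gene and 11 on the other, against a median of 13.5 per 10 bp. CCAAT was most frequent at −70 to −61 bp, with 171 matches on the gene strand and 168 on the other, and the GC box at −50 to −41 bp, with 449 and 418. The ETS sequence was most frequent at 0 to 9 bp, with 116 on the gene strand and 70 on the other. The CRE and the E-box, which read alike on both strands, also were most frequent at 0 to 9 bp, with 39 and 63 matches.

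The YY1 sequence lay mainly downstream of the TSS. Its highest count was at 30 to 39 bp, with 55 matches on the strand of the gene and 8 on the other, against a median of 7.5 per 10 bp. ZNF143 had its highest count at −90 to −81 bp, with 24 and 13, against a median of 11.0. For NRF1 it was at −20 to −11 bp, with 22 and 30, against a median of 17.5. The GATA sequence had its highest count far upstream, at −220 to −211 bp, with 38 matches against a median of 15.5. The highest RUNX count, 17 at −240 to −231 bp, stood against a median of 11.0, and nearby steps had almost as many. RUNX therefore showed no clear preferred place. PU.1, the myeloid and B cell factor of the ETS family, was most frequent at 0 to 9 bp, with 24 matches against a median of 9.5.

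**Figure D4:**
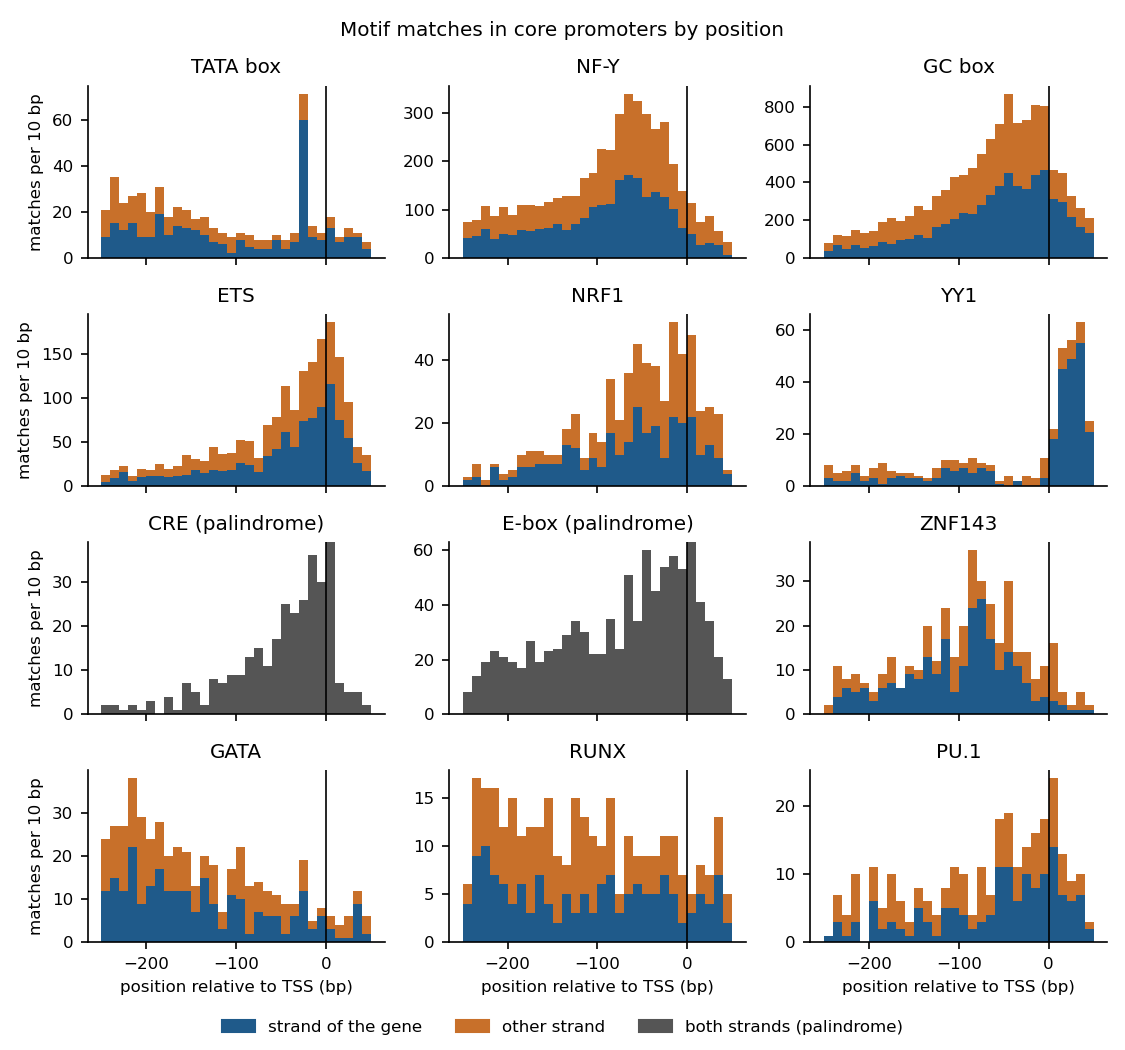
Matches of the 12 sequences in core promoters (vertical axes, matches per 10 bp) by position relative to the TSS (horizontal axes, bp), stacked by strand, with palindromes in dark grey. The TATA box stands out at −30 to −21 bp with 71 matches and YY1 at 30 to 39 bp with 63, whereas RUNX reaches at most 17 in any 10 bp.

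Among the 24 families, those with the highest shares of genes with a core promoter peak were ones that every cell uses. The families were taken by patterns of gene symbols, so their counts include some genes that only share a name with the family. Examples are Rab11fip1 among the Rab GTPases and Eif2ak1 among the translation initiation factors. Among 76 cytosolic ribosomal protein genes 51 had one (67.1%, 55.9 to 76.6%), for example Rpl36a at 0 bp, Rpl21 at −2 bp, Rpl5 at 2 bp and Rps15a at −7 bp. Rpl10, Rpl13a, Rpl15 and Rpl18 had none, and their nearest centres lay upstream, at −155, −192, −164 and −116 bp. Of 39 proteasome genes 26 (66.7%) had one, with Psma7 at 0 bp, Psmc3 at −5 bp and Psmc6 at 5 bp. Psma8 and Psmb11, the forms of testis and thymic epithelium, had their nearest centres at 7675 and −7301 bp. Of 84 oxidative phosphorylation genes 52 (61.9%) had one, such as Cox6a1 at 0 bp, Atp5k at −1 bp and Ndufb11 at 1 bp.

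Other families of this kind, also taken by symbol, had shares from 51.3 to 60.7%. They were the translation initiation factors, with 34 of 56 genes (60.7%), Mediator, which links transcription factors to RNA polymerase II, with 17 of 30 (56.7%), ubiquitin-conjugating enzymes, with 21 of 37 (56.8%), splicing factors, with 27 of 48 (56.3%), the chaperonin CCT, with 5 of 9 (55.6%), Rab GTPases of vesicle traffic, with 38 of 69 (55.1%), RNA polymerase subunits, with 15 of 28 (53.6%), and mitochondrial ribosomal proteins, with 40 of 78 (51.3%, 40.4 to 62.1%). For all protein-coding genes the share was 35.5%. Between 88.5 and 100% of the core promoter peaks in these 11 families had CpG island composition. Histone genes were lower, with 33 of 75 (44.0%, 33.33 to 55.25%), an interval that contains the share of all protein-coding genes. Of their peaks 64.7% had CpG island composition.

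The position of the peaks was compared by family. Mitochondrial ribosomal protein genes had a median of 7.5 bp, with 22 of 40 peaks downstream of the TSS (55%, 39.8 to 69.3%), and splicing factors also had 7.5 bp, with 16 of 28 downstream (39.1 to 73.5%). RNA polymerase subunits had −15 bp, the median of all core promoter peaks, with 3 of 15 downstream (7.05 to 45.2%). The last interval contains the 37.8% of all core promoter peaks, and the first ones lie just above it. The Zfp zinc finger genes, a large family of DNA-binding proteins that includes many repressors of retroelements, had 195 peaks at a median of −24 bp. Of these 36 lay downstream (18.5%, 13.6 to 24.5%), an interval below that of all core promoter peaks (36.7 to 38.9%). Of 395 Zfp genes 193 had a core promoter peak (48.9%, 44.0 to 53.8%), Zfp106 and Zfp943 at 0 bp, and 64.6% (57.7 to 71.0%) of their peaks had CpG island composition.

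Divergent partners were counted in the families against the 9.26% of all core promoter peaks. Oxidative phosphorylation genes had one at 13 of 52 peaks (25%, 15.2 to 38.2%), histone genes at 9 of 34 (26.5%, 14.6 to 43.1%), mitochondrial ribosomal proteins at 8 of 40 (20%, 10.5 to 34.8%) and the chaperonin at 4 of 5 (37.6 to 96.4%). At the chaperonin these were Tcp1 with Mrpl18, Cct7 with Pradc1, Cct5 with Atpsckmt and Cct6b with Zfp830. Zfp genes had one at 4 of 195 peaks (2.05%, 0.801 to 5.16%). None was found at the interleukin, chemokine or CD antigen genes, whose intervals reach 12.9, 25.9 and 9.64% and so include the share of all core promoter peaks.

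Genes of other tissues seldom had a core promoter peak. Among 1107 olfactory receptor genes 2 had one (0.181%, 0.0496 to 0.656%), Olfr658 at −19 bp and Olfr1033 at −65 bp. One of 350 vomeronasal receptors had one, Vmn2r29 at 34 bp, and none of 70 defensins, the antimicrobial peptides of gut and epithelia. Multimapping reads were left out, so near-identical copies in such families can lose peaks. In this list that cannot be told apart from closed chromatin. Krt18, at −50 bp, was the only one of 49 keratins. Collagens had 5 of 44 (11.4%), among them Col16a1 at −10 bp and Col6a2 at 13 bp, and cytochrome P450 genes 12 of 99 (12.1%), such as Cyp4f16 at −2 bp and Cyp2j6 at 7 bp. Of 39 Hox genes, the regulators of body axis position, 2 had one (5.13%), among them Hoxa3 at −39 bp. Within 500 bp 10 of them (25.6%) had a peak. Hoxa9 is also in the list of stem cell genes below, so this family is not one of other tissues only. A further list of 22 regulators and products of brain, muscle, pancreas, liver and skin held none, and their centres within 500 bp were those of Pax6 at −162 bp and Neurog2 at 362 bp.

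**Figure D5:**
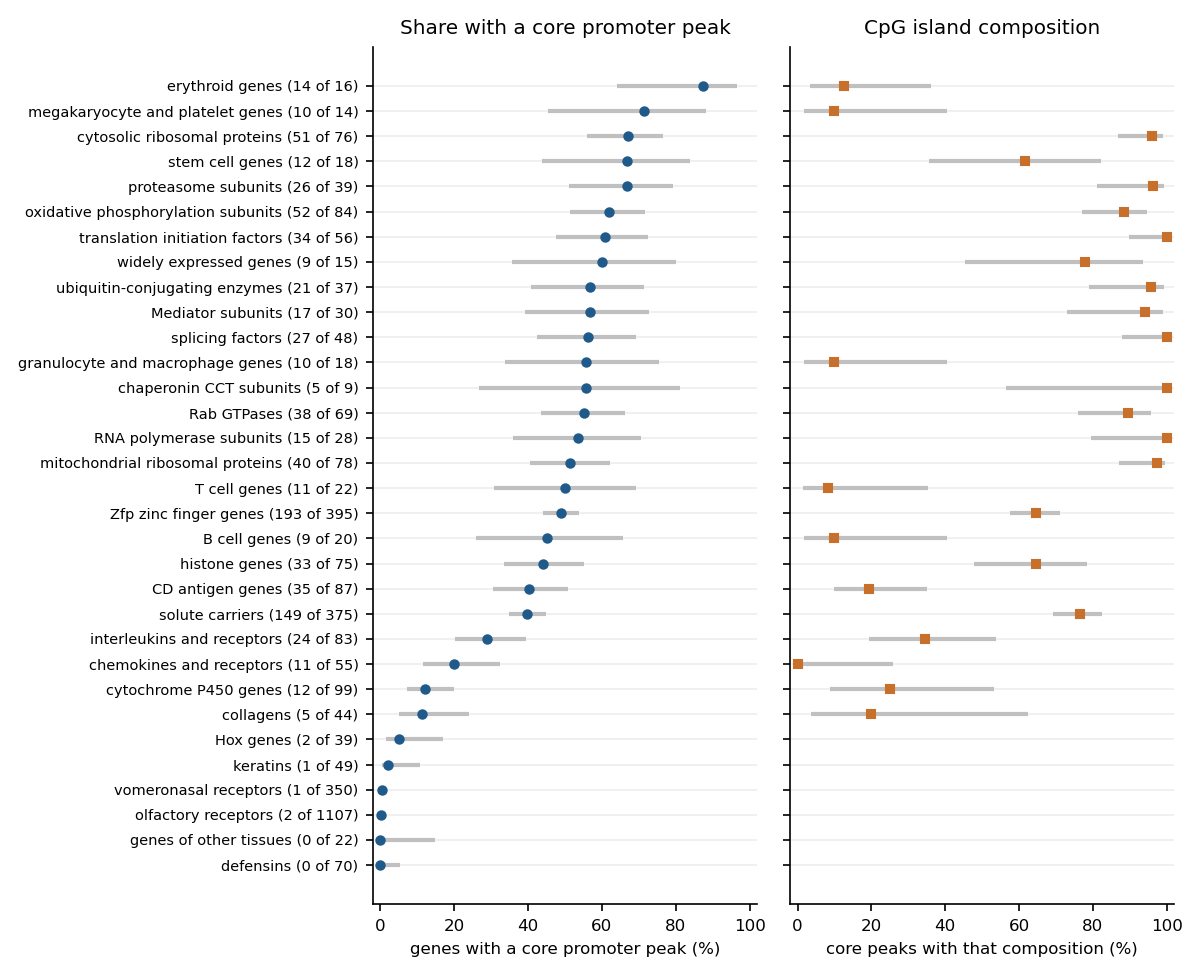
Share of genes with a core promoter peak (left, %, counts in brackets) and share of core promoter peaks with CpG island composition (right, %, lists with 5 or more peaks) for 24 families and 8 lists, with 95% Wilson intervals as bars. Ribosomal protein genes (67.1%) and erythroid genes (87.5%) both have high shares on the left, but 96.1% and 12.5% on the right.

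Immune families were nearer the 35.5% of all protein-coding genes. Of 87 CD antigen genes 35 had a core promoter peak (40.2%, 30.5 to 50.7%), including Cd28 at 0 bp, Cd53 at −5 bp and Cd40 at 6 bp, and only 7 of their 36 peaks (19.4%, 9.75 to 35.0%) had CpG island composition. Interleukins and their receptors had 24 of 83 (28.9%, 20.3 to 39.4%), with Il21r at −3 bp and Il2ra at −7 bp, and Il10 and Il11 had none. Chemokines and their receptors had 11 of 55 (20%, 11.5 to 32.4%), among them the receptor genes Ccr1 at −22 bp, Cxcr5 at −31 bp and Ccr9 at −33 bp, and none of those 11 peaks had CpG island composition. The first 2 intervals contain the share of all genes, and that of the chemokines lies below it.

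Genes that mark the blood cell types of the study were described as 6 lists. Erythroid genes had a core promoter peak at 14 of 16 (87.5%, 64.0 to 96.5%). Klf1, the erythroid master factor, had it at −15 bp, Alas2, which starts heme synthesis in red cells, at −37 bp, and Slc4a1, the anion exchanger band 3, at 55 bp. The exceptions were Gata1, with the nearest centre at −284 bp, and Zfpm1, its cofactor, at −329 bp. Of 14 megakaryocyte and platelet genes 10 (71.4%) had one, among them the platelet integrin gene Itgb3 at −2 bp and Vwf, the von Willebrand factor, at −5 bp. Itga2b, at −247 bp, Gp1bb, at 758 bp, Treml1, at 821 bp, and Ppbp, at −2463 bp, had none.

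Stem cell genes had a core promoter peak at 12 of 18 (66.7%). Mecom lay at −7 bp, Hlf at 14 bp, Kit, the receptor of stem cell factor, at −26 bp, Gata2 at −30 bp, Meis1 at −34 bp and Erg at −41 bp. Runx1 lay at 48 bp and Cd34 at the limit, 100 bp. Tal1 at 323 bp, Lyl1 at 136 bp, Fli1 at −192 bp and Ndn at 210 bp were outside the limit, and the nearest centres of Hoxa9 and Procr were at 1253 and 4708 bp.

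Granulocyte and macrophage genes had one at 10 of 18 (55.6%). Itgam was at 0 bp, Csf3r, the G-CSF receptor, at −3 bp, Ngp at −5 bp, Ly6g at 9 bp, Lyz2, lysozyme, at −15 bp, and Spi1, which encodes PU.1, at 63 bp. The azurophil granule genes Mpo, Elane and Prtn3 had their nearest centres at 1472, −1211 and −1771 bp, whereas Cebpa, at −118 bp, Camp, at −121 bp, and Gfi1, at −141 bp, were just outside the limit.

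B cell genes had one at 9 of 20 (45.0%) and T cell genes at 11 of 22 (50%), and they differed in where the other genes lay. Of the B cell genes 17 had a centre within 500 bp: Pax5 and Cd79a, at −125 bp, Igll1, at −111 bp, and Ms4a1 and Fcer2a, at −108 bp, missed the limit narrowly. Of the T cell genes 12 had a centre within 500 bp, and Cd3d, Cd3g, Cd4, Cd8a, Cd8b1, Thy1 and Tcf7 had their nearest ones farther away, from 2834 bp at Cd4 to −56749 bp at Cd8a. Those with a core promoter peak included Cd79b at −31 bp, Rag1 at −24 bp and Cd22 at 21 bp for B cells, and Lck at −13 bp, Cd247 at −18 bp and Gata3 at −28 bp for T cells. Blnk had a curated start 65 bp from a centre, at −65 bp by RefSeq, but no core promoter peak in the list.

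The 5 lineage lists, stem cell genes left aside, had 58 core promoter peaks with a low CpG content. Their median CpG ratio was 0.240, their median GC content 52.3% and their median distance −21.5 bp. CpG island composition was found at 6 of the 58 (10.3%, 4.83 to 20.8%), against 77.9% of all core promoter peaks. Those 6 belonged to Tfrc, Ank1, Itgb3, Mtus1, Irf8 and Gata3. Of the 13 peaks of stem cell genes 8 (61.5%, 35.5 to 82.3%) had it, and of the 9 peaks of widely expressed genes such as Actb, at −17 bp, 7 (77.8%, 45.3 to 93.7%). None of the 58 lineage peaks had a divergent partner (interval up to 6.21%), against 3.71% of CpG-poor core promoter peaks, a share below that upper limit.

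The ETS letters were in none of the 56 lineage promoters with a RefSeq transcript, against 19.3% of all and 6.99% of CpG-poor core promoters; a Wilson interval for 0 of 56 reaches 6.42%. The GC box was in 14 (25.0%, 15.5 to 37.7%), against 67.2% of all and 39.8% of CpG-poor core promoters. GATA was in 13 (23.2%, 14.1 to 35.8%), against 6.10% of all and 11.0% of CpG-poor core promoters. Of these 13, 6 were erythroid (of 14 promoters, among them Alas2, Epor, Nfe2 and Slc4a1) and 4 were megakaryocytic (F2rl2, Gp5, Gp6 and Pf4, of 10). Ltf and S100a9 were among the rest. PU.1 was in 7 (12.5%, 6.19 to 23.6%), among them Ly6g, S100a8, Cd72 and Cd5, and RUNX in 5 (8.93%, 3.87 to 19.3%), Cd6, Il7r, Lck, Lyz2 and Rag1. The TATA box was in 8 (14.3%, 7.42 to 25.7%), which included Alas2, Pklr, S100a8 and S100a9. CpG-poor core promoters had PU.1 in 6.93%, RUNX in 7.58% and the TATA box in 10.9%, each inside the interval of the lineage promoters. The median CpG ratio was 0.240 at the lineage peaks and 0.402 at all CpG-poor core promoter peaks. The ETS and GC box letters hold a CpG, and the part of composition in these shares was not tested.

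Along the chromosomes the core promoter peaks were unevenly spread. The median distance between neighbouring core promoter peaks was 93688 bp, the quartiles were 35336 and 271766 bp, and the longest stretch without one was 15.1 Mb. Neighbours were at most 10 kb apart in 524 of 7659 gaps (6.84%) and at most 100 kb apart in 3972 (51.9%). Of 2737 windows of 1 Mb, 1751 held a core promoter peak, and the 273 windows with the most held 3261 peaks (42.5%). Those windows were ranked by this same count, so their high share was set in advance. Core promoter peaks can lie only at gene starts, and the part of gene density in this spread was not tested.

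The densest window was at 5000001 to 6000000 on chromosome 19, with 30 core promoter peaks. They named 30 of the 51 protein-coding genes that start there (58.8%), such as Brms1 at −27 bp and Rab1b at 12 bp. The window at 76000001 on chromosome 15 had 28 peaks at 25 of 52 genes and included Plec, Scrib and Puf60. On chromosome 2 the window at 32000001 had 27 peaks at 25 of 34 genes (73.5%), among them Golga2 and Dnm1, and on chromosome 9 the window at 108000001 had 26 at 25 of 40 genes, with Apeh and Dag1. The fifth window, at 30000001 on chromosome 7, had 25 at 23 of 55 genes and began with a row of zinc finger genes, Zfp14, Zfp566, Zfp382 and Zfp146.

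A further 576 windows held starts of protein-coding genes and no core promoter peak. Of the 5 with the most starts, 4 were mainly clusters of olfactory receptor genes. The window at 129000001 on chromosome 10 had 50 starts, 49 of olfactory receptors. On chromosome 2 the windows at 87000001, 88000001 and 89000001 had 49, 40 and 42 starts, with 47, 40 and 42 of olfactory receptors. The window at 92000001 on chromosome 3 had 42 starts, 20 of them Lce genes of the cornified envelope of skin.

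Core promoter peaks had other peaks close by slightly less often than peaks outside promoters. Another peak lay within 10 kb of 70.4% (69.3 to 71.4%) of them. The share was 74.3% (72.6 to 76.0%) for peaks 101 to 500 bp upstream of a protein-coding TSS, 70.4% (68.5 to 72.2%) for those downstream, and 74.0% (73.7 to 74.3%) for peaks outside promoters, whose interval lay above that of the core promoters. The mean number of neighbours was 1.48 at core promoters and 1.69 outside promoters. Of the core promoter peaks 2276 had no other peak within 10 kb and 311 had 5 or more. The most, 8, were around Atp5d, a subunit of ATP synthase, at 69 bp, Gpr132 at −85 bp, Gtpbp2 at −70 bp and the Plec peaks at −21 and −74 bp.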

How the data were processed

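ATAC-seq libraries of 12 samples in 6 groups were mapped by the authors to mm10 with the ENCODE ATAC-seq pipeline, without multimapping reads. Reproducible (IDR optimal) peaks were joined across cell types, thinned with chromVAR so that none overlapped, and annotated with HOMER 4.10.2. Positions, gene type and distance to the TSS were used as deposited, in bp, without normalization. The score deposited by the authors was 0 in each peak and was not used. The list held 0 further columns of values per sample, so depth is unknown, no test was made and no sample entered a comparison alone.

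Genes were counted by gene ID. Starts, divergent partners and sequence came from NCBI RefSeq (GRCm38.p6). Of the 7680 peaks, 7658 were on transcripts found there, and for 93.9% of these the start implied by the list was within 2 bp of the RefSeq start. Those 22 others had no sequence window or partner. The gene families, lists and motifs, and the members themselves, were chosen with earlier results of these data known. Named were the genes of the lists, the 5 genes with the most core promoter peaks, up to 6 genes in each of the 5 densest windows, in each family up to 4 genes with and 4 without a peak (nearest first, then by symbol), for each motif the listed gene centred nearest its TSS, the 4 closest pairs and the genes nearest the limit. The promoters shown for the commonest position of a motif, the chaperonin partners and the genes listed by motif or composition were added after their values were seen. Some genes under this rule are not reported here. The search was tested on simulated data. Python 3.11.15, numpy 2.4.6, pandas 2.3.3, pysam 0.24.0 and matplotlib 3.10.9 were used. The alternatives concerned the limit, the starts, the partner, the composition, the motif window and strand, the family limit, the window size and the neighbour distance.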

Additional observations from a re-analysis of the deposited data

How the results depend on the processing

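With a limit of 500 bp in place of 100 bp there were 12402 peaks at 11535 genes, and 42.0% lay downstream of the TSS; with 50 bp 41.6% did. A partner up to 500 bp, up to 300 bp or of any curated type gave 8.28, 7.52 and 12.1% bidirectional peaks. CpG island composition was 79.1% in the central 200 bp and 55.3% with a GC content of 55% and a ratio of 0.75. Over the whole peak the shares were TATA box 7.83, NF-Y 45.6, GC box 77.5, ETS 23.9, NRF1 6.35, YY1 7.59, E-box 13.9, ZNF143 5.51, GATA 8.11, RUNX 5.72 and PU.1 4.74%, and on the gene strand alone TATA box 4.05, NF-Y 22.9, GC box 45.2, ETS 11.3, NRF1 3.84, YY1 3.42, ZNF143 2.95, GATA 3.26, RUNX 1.92 and PU.1 1.88%. Within 500 bp the shares of genes were cytosolic ribosomal 85.5, mitochondrial ribosomal 73.1, oxidative phosphorylation 78.6, proteasome 84.6, splicing 81.3, translation initiation 85.7, Mediator 80.0, RNA polymerase 85.7, ubiquitin-conjugating 78.4, Rab 79.7, Zfp 77.7, histone 64.0, Hox 25.6, solute carriers 59.2, CD antigens 62.1, interleukins 47.0, collagens 27.3, stem cell 88.9, erythroid 100, granulocyte and macrophage 83.3, B cell 85.0 and widely expressed genes 100%. By RefSeq starts no vomeronasal receptor had a core promoter peak (0.0%). The densest window of 500 kb held 19 peaks, and another peak lay within 5 kb of 47.8% and within 20 kb of 87.4%. The order of the lists changed with the limit: T cell genes had a higher share than B cell genes at 100 bp, but 54.5% against 85.0% within 500 bp. No median distance changed sign, and 54 values under an alternative stayed within their interval (shares), within 1 SD over peaks (medians) or within 1.5 times (counts). The values listed above, up to the neighbour shares, moved beyond these limits. The limits were wide for medians, with an SD of 45.45 bp, and for counts. The 5197 peaks at 50 bp and 10100 at 200 bp stayed within them, against 7680. Comparisons with other peaks and with promoters without a peak were not repeated under the alternatives. Genes with 1 curated start, an alternative chosen after seeing the data, gave a median of −15 bp and 37.8% downstream over 5728 peaks. No replicate could be left out, because the list pools all samples.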

Other observations

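Symbols turned into dates by a spreadsheet were found at 143 peaks of 25 genes in the deposited list. Among the core promoter peaks there were 11, at 11 genes, and 1 such date stood for 2 different genes. The 7680 peaks therefore carried 7483 symbols for 7484 gene IDs, and counts by symbol would merge that pair.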
